A study of Homo sapiens with 4 samples.

Results

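The genes described here encode 10 members of the BCL2 family of apoptosis regulators: BCL2, MCL1, BCL2L1, BCL2A1, BAX, BAK1, BCL2L11, BBC3, PMAIP1 and BID. Every ATAC-seq peak that overlapped one of these genes or the 20 kb on either side of it on hg38 was taken, whatever its height, and peaks that overlapped each other across libraries were merged into regions. This gave 71 of the 73729 regions of the series, and the genes are 10 of the 19974 protein-coding genes of the reference table. ATAC-seq uses the Tn5 transposase to cut and tag accessible DNA, so that a peak marks open chromatin.

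The cells were AMO1, an established multiple myeloma line, and all of them had been transfected with the PCDH vector. In the empty vector group the vector carried no insert, and in the PHF19 overexpression group it carried PHF19, whose product recruits Polycomb repressive complex 2 to its target genes. The other groups, IFN empty vector and IFN PHF19 overexpression, used the same pair of vectors, and their titles begin with IFN, which the labels do not explain; they are called IFN-prefixed here. Each group was 1 library of 1 cell line, so no difference below has a replicate and none was tested. The labels do not say whether the transfected cells were a clone or a mixed population.

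Proteins of the BCL2 family decide whether the outer mitochondrial membrane is breached and cytochrome c set free, the step that commits a cell to intrinsic apoptosis. Guardians (BCL2, MCL1, BCL-XL from BCL2L1, and BFL1 from BCL2A1) hold the pore-forming effectors BAX and BAK1 in check, and BH3-only proteins (BIM from BCL2L11, PUMA from BBC3, NOXA from PMAIP1, and BID) relay stress signals by binding guardians or effectors. Plasma cells and myeloma cells depend strongly on MCL1, which keeps them alive against a standing load of BIM, and drugs that block BCL2 or MCL1 act on this balance.

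The promoters of these genes either overlapped a peak (open) or had none in any library (called closed here, although a library can miss weak opening). Sequences of both kinds are shown first because they differ in CpG content, which across all genes varied with promoter openness in these libraries. The promoter table, taken from RefSeq on GRCh38.p14, gives 300 bases per transcript start, 250 before it and 50 after, and holds 14 sequences for 9 of the 10 genes, MCL1 excepted. Capitals mark CpG dinucleotides in the first 4 sequences below, all written 5′ to 3′ in the direction of the gene. The promoters of BCL2A1 (chr15:79971147-79971446, minus strand) and BBC3 (chr19:47232618-47232917, minus strand) overlapped a peak in none of the 4 libraries, and those of BCL2L11 (chr2:111120664-111120963, plus strand) and PMAIP1 (chr18:59899746-59900045, plus strand) overlapped one in all 4.
BCL2A1: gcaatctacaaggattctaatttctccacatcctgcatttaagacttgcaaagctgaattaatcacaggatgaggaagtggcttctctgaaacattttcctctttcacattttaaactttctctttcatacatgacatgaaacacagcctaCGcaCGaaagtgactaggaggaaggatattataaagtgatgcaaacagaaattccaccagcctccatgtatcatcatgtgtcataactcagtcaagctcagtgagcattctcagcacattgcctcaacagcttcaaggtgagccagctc
BBC3: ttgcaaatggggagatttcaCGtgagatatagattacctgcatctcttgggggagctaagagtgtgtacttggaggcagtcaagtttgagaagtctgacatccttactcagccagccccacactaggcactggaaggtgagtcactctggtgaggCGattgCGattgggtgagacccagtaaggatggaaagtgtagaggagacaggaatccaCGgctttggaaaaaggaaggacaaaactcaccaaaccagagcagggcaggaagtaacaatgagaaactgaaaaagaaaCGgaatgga
BCL2L11: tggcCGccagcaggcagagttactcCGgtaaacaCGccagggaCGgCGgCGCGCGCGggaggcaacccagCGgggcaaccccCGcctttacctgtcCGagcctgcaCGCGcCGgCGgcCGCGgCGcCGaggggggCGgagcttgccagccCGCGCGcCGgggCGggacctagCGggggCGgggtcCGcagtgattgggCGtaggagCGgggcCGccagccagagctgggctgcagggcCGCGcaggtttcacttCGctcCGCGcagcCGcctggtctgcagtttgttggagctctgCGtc
PMAIP1: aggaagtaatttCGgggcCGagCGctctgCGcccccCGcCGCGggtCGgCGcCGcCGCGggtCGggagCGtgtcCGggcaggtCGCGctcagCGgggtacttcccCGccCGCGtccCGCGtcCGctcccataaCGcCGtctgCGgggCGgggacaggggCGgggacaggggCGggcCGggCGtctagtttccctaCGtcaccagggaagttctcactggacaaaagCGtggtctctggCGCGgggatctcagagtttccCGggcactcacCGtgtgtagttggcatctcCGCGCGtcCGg

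The closed promoter of BCL2A1 held 2 CpG sites and that at the 1 listed start of BBC3 held 5, against 39 in BCL2L11 and 42 in PMAIP1. For BBC3, a region 1.3 kb inside the gene was open in all 4 libraries. Whether that region holds a further start was not tested. Observed over expected CpG was 0.16 for BCL2A1 and 0.31 for BBC3. It was 0.94 for BCL2L11 and 1.11 for PMAIP1, and the median of all 22130 protein-coding promoters was 0.74. GC content was 41.0% in BCL2A1, 48.0% in BBC3, 74.7% in BCL2L11 and 71.3% in PMAIP1, with a median of 62.3% over all promoters. Over all 22130 promoters, 7.55% of those with a CpG ratio under 0.2 overlapped a region called in all 4 libraries, and 89.2% of them overlapped none. Among promoters with a ratio of 1.0 or more 83.7% overlapped a region called in all 4 libraries. BAK1 went the other way, since its promoter was open in all 4 libraries with 7 CpG sites and a ratio of 0.28. BID has 5 sequences in the table, and the single one that overlapped no peak had 6 CpG sites and a ratio of 0.34.

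Motifs were searched on both strands in the same windows, and a match is a description of letters, not a bound site. In BAX (chr19:48954625-48954924, plus strand) the promoter is shown because it carried the palindrome CACGTG at 4 places, beginning 138, 93, 45 and 14 bases before the start; the capitals mark CACGTG and, in either orientation, GGGCGG and the CCAAT box.
BAX: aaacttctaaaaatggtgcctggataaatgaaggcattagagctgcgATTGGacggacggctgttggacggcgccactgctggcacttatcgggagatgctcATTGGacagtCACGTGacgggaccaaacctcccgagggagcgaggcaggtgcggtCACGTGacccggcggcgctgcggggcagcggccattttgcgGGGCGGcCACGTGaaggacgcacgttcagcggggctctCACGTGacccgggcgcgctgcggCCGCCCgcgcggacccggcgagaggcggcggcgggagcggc

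Only 5 of the 22130 promoters, or 0.0226%, held CACGTG at 4 or more places, and 8.34% held it at all. Among the 9 genes, BBC3 and BID also had it, and 4 of the 14 sequences held it. Shares of all promoters count sequences, not genes, so counts over the 14 sequences are the like measure. GGGCGG was found in 6 of the 9 genes (BAK1, BAX, BCL2L1, BCL2L11, BID and PMAIP1). It was in 9 of the 14 sequences and in 56.3% of all promoters. CCAAT was found in 4 genes (BAK1, BAX, BBC3 and BCL2L11). It was in 4 of the 14 sequences and in 34.6% of all promoters. PMAIP1 carried GGGCGG at 4 places, and 12.0% of all promoters held it at 4 or more; BCL2L11 carried it at 3. TATAAA occurred in BCL2A1 and BCL2L1, in 2 of the 14 sequences, and in 9.46% of all promoters. The core of the interferon-stimulated response element is a pair of GAAA words on 1 strand separated by any 2 bases. Among the 9 genes only the closed promoters of BCL2A1 and of the listed BBC3 start held it. These were 2 of the 14 sequences, against 3.17% of all promoters. In BBC3 it occurred at a pair of overlapping places, and 0.258% of promoters held it at 2 or more.

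The libraries differed in depth, and this bears on every count of peaks. By their headers the files rest on 27.4 M (mega) fragments with the empty vector, 18.2 M with PHF19, 65.9 M in IFN empty vector and 16.4 M in IFN PHF19 overexpression, and the lists held 49155, 44090, 69830 and 45825 peaks. The IFN empty vector file was also made in a different project folder from the other files, per its header. The vector's gene PHF19 had 1 narrow region called in both PHF19 overexpression libraries and in neither empty vector library, at chr9:120857950-120858284, with 7.90 and 7.33 fragments per M. Whether these fragments came from the chromosome or from the PHF19 insert of the vector was not tested. Of 6 plasma cell markers (SDC1, TNFRSF17, IRF4, PRDM1, XBP1, POU2AF1) all 6 had an open start or gene end in the 4 libraries, with summed heights of 349, 377, 244 and 408 fragments per M. Neither PAX5 nor MS4A1, markers of mature B cells, had one, and 1 of 3 T and NK, 1 of 3 myeloid and 2 of 3 epithelial and stromal markers did. Most of each plasma cell sum came from SDC1, at 246, 295, 158 and 314, higher in both PHF19 overexpression libraries. The log2 PHF19 ratio of SDC1, centred on all regions, was 0.37 in the unprefixed pair and 0.83 in the IFN-prefixed pair. Centred on regions within 2.5 Mb it was -0.02 and 0.60. TNFRSF17 (11.2, 7.52, 8.95 and 7.82) and IRF4 (18.9, 10.6, 13.2 and 12.0) were lower in both. PRDM1, XBP1 and POU2AF1 did not separate the vectors in either direction.

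The height of a region is the coverage by fragments at its tallest summit over the depth in M, so a height of 5 means 5 fragments per M at the summit. Heights below are given with the unprefixed libraries first (empty vector, then PHF19 overexpression) and the IFN-prefixed libraries after them in the same order. Log2 ratios of heights are centred on the median ratio of all regions called in both libraries, and 95% intervals cover counting error only. A region is called higher or lower at 1.5-fold or more.

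Of the 71 regions, 41 were called in all 4 libraries (57.7%, against 48.5% of all regions of the series), and 20 in the IFN empty vector library alone (28.2% against 21.6%). A further 5 were called in both empty vector libraries alone, 7.04% against 8.64%. None was called in both PHF19 overexpression libraries alone, a class that holds 0.583% of all regions. Gene bodies held 36 of the regions and flanks 35. BCL2, the longest of the genes at 196.7 kb, had 20 regions, 9 of them called in all 4 libraries and 10 in the IFN empty vector library alone. BCL2L1 and BCL2L11 had 9 each (6 called in all 4), MCL1 6 (3), BBC3 6 (4), PMAIP1 6 (1), BAX 5 (4), BID 5 (4), BAK1 4 (4) and BCL2A1 1 (0).

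At the starts of the genes, MCL1 stood far above the rest in height and BID was lowest. The mean height over the 4 libraries was 40.3 fragments per M for MCL1, 13.2 for BCL2L1, 11.0 for BCL2L11, 8.03 for PMAIP1, 6.20 for BAK1, 5.48 for BCL2, 4.64 for BAX and 4.32 for BID. Ranges over the libraries did not overlap between MCL1 and BCL2L1 or between PMAIP1 and BAK1, and they overlapped between all other neighbours in this order. Set among the 8820 start regions of the series called in all 4 libraries, MCL1 was taller than 99.7%, BCL2L1 than 87.5% and BCL2L11 than 78.2%, and BCL2 was taller than 32.9%. So by height the starts of BCL2, BAX and BID, although open in every library, lay in the lower part of the range for open starts. The authors' fold enrichment over the local background gave another order. MCL1 had 8.13, 7.97, 7.06 and 8.31. BCL2L1 (10.8, 10.2, 9.68 and 9.49), BAX (10.2, 10.2, 9.08 and 10.5) and, narrowly, PMAIP1 were above it in every library. BCL2, BCL2L11 and BID were below it in every library, and BAK1 lay on either side. Heights were not corrected for local background or copy number. The start of BCL2L11 was the widest at 3095 bp, that of BID the narrowest at 1315 bp, and the median over start regions was 1464 bp.

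**Figure D1:**
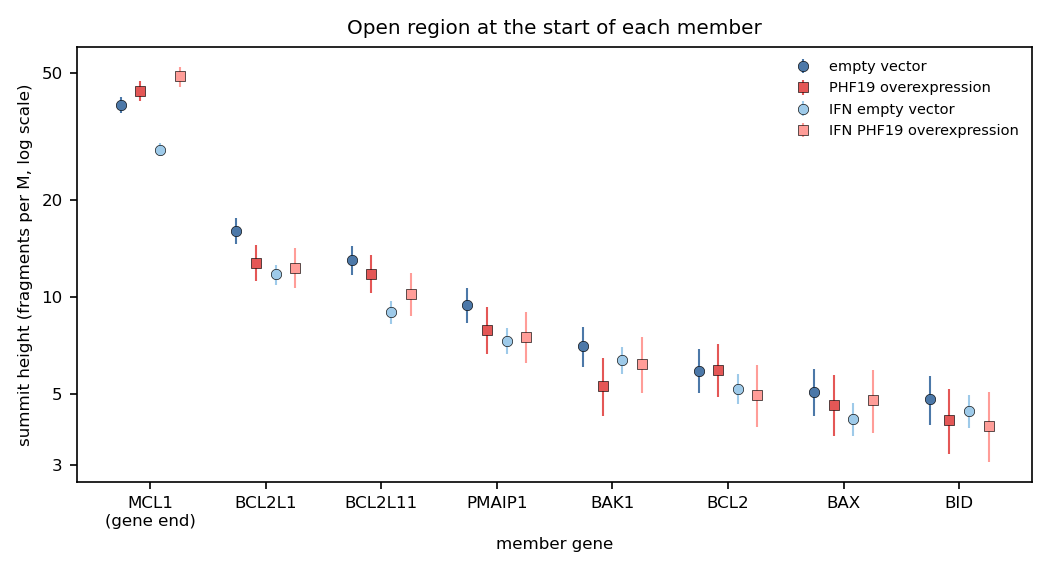
Height of the open region at the start of each gene (for MCL1, at the gene end), in fragments per M on a log scale, with 1 point per library and bars for the 95% counting interval. MCL1 lies between 28.8 and 48.7, above every other gene, and BID between 3.97 and 4.79.

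Among the guardians, MCL1 had the tallest open chromatin of all 10 windows. The region at its gene end (chr1:150578091-150580304) had heights of 39.7, 43.9, 28.8 and 48.7, so the IFN empty vector library was the lowest and both PHF19 overexpression libraries were the highest. Its log2 PHF19 ratio was 0.26 (0.12 to 0.39) in the unprefixed pair and 0.59 (0.47 to 0.71) in the IFN-prefixed pair, where it was called higher. With the ratio centred on regions within 2.5 Mb these became -0.02 and 0.33, and the call was lost. The IFN empty vector library also enters the IFN-prefix ratio, which was -0.37 (-0.48 to -0.27) with the empty vector and 0.03 (-0.11 to 0.18) with PHF19.

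The tallest region of any of the 10 windows lay in the MCL1 flank at ADAMTSL4 and its antisense gene (chr1:150560122-150564186), with heights of 84.6, 77.3, 68.0 and 87.7. The next region (chr1:150567145-150569179) had 36.7, 33.8, 35.2 and 39.3, with log2 ratios no farther from 0 than 0.10 in the 4 comparisons. Both stayed within the fold in every comparison. At the other gene end of MCL1 a peak was called in the IFN empty vector library alone (chr1:150573262-150574011), with 5.14 fragments per M (339 in all at the summit) and the authors' fold enrichment of 1.55. At that height 141 fragments would be expected in the empty vector library, where no peak was called, and 84.2 in IFN PHF19 overexpression.

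BCL2, the guardian that keeps BAX and BAK1 inactive and the target of venetoclax, was open at its start to nearly the same level in all libraries. The start (chr18:63319537-63321164) had heights of 5.88, 5.93, 5.17 and 4.95, a PHF19 log2 ratio of 0.12 (-0.24 to 0.48) in the unprefixed pair and -0.23 (-0.60 to 0.12) in the IFN-prefixed pair. Its tallest region was not at the start but 157.9 kb inside the gene (chr18:63160758-63162561), next to a pair of other regions open in all 4 libraries 161.8 and 164.1 kb inside. Heights there were 13.3, 8.18, 12.9 and 10.0, lower in both PHF19 overexpression libraries than in either empty vector library. The log2 PHF19 ratio was -0.59 (-0.88 to -0.31) in the unprefixed pair, called lower, and -0.53 (-0.78 to -0.29) in the IFN-prefixed pair, just short of the fold. It was -0.47 in the unprefixed pair when centred within 10 classes of height, which ends the call. A region 1.5 kb inside BCL2 had heights of 8.59, 5.38, 6.34 and 5.07 and log2 ratios of -0.56 (-0.92 to -0.22) and -0.49 (-0.85 to -0.15), short of the fold in both pairs. In the unprefixed pair it was past the fold when centred within 2.5 Mb, at -0.69, and without centring, at a height ratio of 0.626; in the IFN-prefixed pair it was -0.45 when centred within 2.5 Mb.

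BCL2L1, whose product BCL-XL guards the same membrane, had an open start with heights of 16.0, 12.8, 11.8 and 12.3 (chr20:31722507-31724241), the highest value being that of the empty vector library. Its PHF19 log2 ratios were -0.22 (-0.45 to 0.02) and -0.10 (-0.33 to 0.13). Inside the gene a pair of small regions was lower with PHF19. The one 18.1 kb inside (chr20:31705568-31706330, overlapping BCL2L1-AS1) had heights of 2.41, 1.48, 2.5 and 1.34, from 66, 27, 165 and 22 fragments. The empty vector libraries lay close together and above both PHF19 overexpression libraries, with log2 ratios of -0.59 (-1.30 to 0.07) and -1.07 (-1.78 to -0.42). The other, 6.3 kb inside (chr20:31717172-31717904), had 2.48, 0.933 and 2.06 in the first 3 libraries, a log2 ratio of -1.30 (-2.16 to -0.52), and no peak in IFN PHF19 overexpression, where 33.8 fragments would be expected at the IFN empty vector height.

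**Figure D2:**
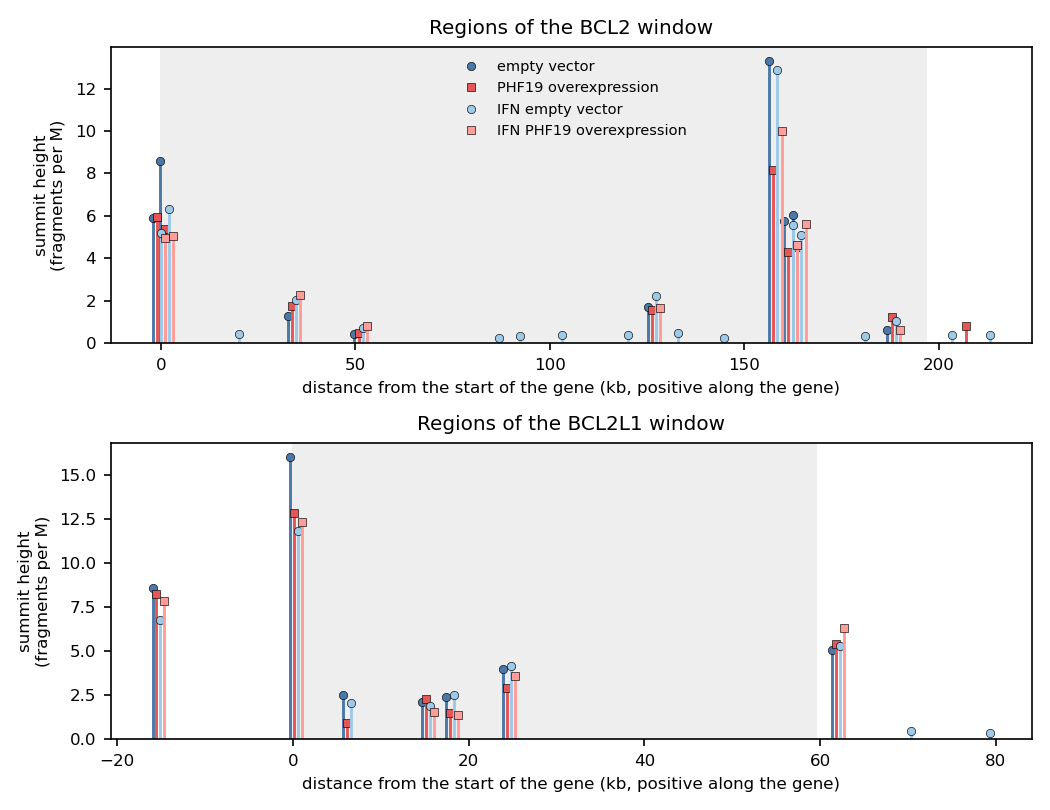
Heights in fragments per M of all regions in the BCL2 (top) and BCL2L1 (bottom) windows against the distance from the gene start in kb; grey marks the gene body, and points of 1 region are set slightly apart by library. The tall BCL2 region 157.9 kb inside the gene reaches 13.3 in the empty vector library and 8.18 with PHF19, and most low regions are in the IFN empty vector library alone.

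BCL2A1, which encodes the guardian BFL1 and is induced by NF-kappaB in activated B cells, had no open start in any library. Its single region lay 10.9 kb upstream (chr15:79981847-79982186) and was called in the IFN empty vector library alone, from 42 fragments or 0.637 per M. At that height 17.4 fragments would be expected in the empty vector library, more than at 14.9% of its called peaks. In IFN PHF19 overexpression 10.4 would be expected, below the tenth percentile of 12.0 fragments there, although the lowest peak had 8. Absence of the region from that library therefore cannot be told from a peak missed at this depth.

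The effectors BAX and BAK1 had open starts that varied little. For BAX (chr19:48954465-48955878) heights were 5.04, 4.61, 4.16 and 4.76, with PHF19 log2 ratios of -0.02 (-0.43 to 0.38) and 0.03 (-0.35 to 0.40). For BAK1 (chr6:33578288-33580620) they were 7.02, 5.27, 6.36 and 6.17, with -0.30 (-0.67 to 0.06) and -0.21 (-0.54 to 0.11). All of these intervals included 0. The tallest region of the BAX window lay at the start of FTL, the ferritin light chain gene (chr19:48963438-48966137), with 10.2, 8.01, 7.16 and 8.06, and that of BAK1 lay 9.1 kb from the start beyond the far end of the gene (chr6:33570667-33571970), with 14.5, 11.0, 11.3 and 10.8. In both the empty vector library was the highest and the other 3 were close together.

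BCL2L11, the gene of the BH3-only protein BIM, held the region that differed most. It lay 36.9 kb inside the gene (chr2:111156994-111158323; exon positions were not used here) and had heights of 8.62 in the empty vector library, 2.96 with PHF19, 8.53 in IFN empty vector and 2.56 in IFN PHF19 overexpression. The empty vector libraries were nearly equal, from 236 and 562 fragments, and so were the PHF19 overexpression libraries, from 54 and 42, with a wide gap between. Its log2 ratio was -1.43 (-1.88 to -1.0) in the unprefixed pair and -1.90 (-2.39 to -1.45) in the IFN-prefixed pair, 0.371 and 0.268 of the empty vector height after centring. Of the 35731 regions called in all 4 libraries, 141 (0.395%) were at least as low in both pairs. The libraries are bulk samples, in which fewer cells with an open region and less opening in each cell cannot be told apart. The IFN-prefix ratio was 0.07 (-0.15 to 0.29) with the empty vector and -0.32 (-0.94 to 0.29) with PHF19. Among the marker lists, the myeloid one was also lower with PHF19 in both pairs, with summed heights of 3.40, 1.04, 3.03 and 1.22, all of it from SPI1, while CD14 and LYZ had no open start or gene end in any library. Its part in the BCL2L11 difference was not tested.

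The shape of this BCL2L11 region differed along with its height. Each empty vector library had 1 summit there, at 111157794 and 111157715. The PHF19 overexpression libraries each had a summit on either side, at 111157584 and 111157877 (54 and 46 fragments) without the prefix and at 111157591 and 111157935 (42 and 41 fragments) with it. Tallest summits therefore lay 210 bp apart in the unprefixed pair and 124 bp apart in the IFN-prefixed pair, against 7 bp between the PHF19 overexpression libraries and 79 bp between the empty vector libraries. The peak spanned 1287, 1086, 1268 and 950 bp, and the authors' fold enrichment over the local background was 8.20, 5.95, 8.95 and 5.33. Summit positions from as few as 41 fragments are imprecise, and whether the difference in summits differs beyond that imprecision was not tested.

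The other open regions of the BCL2L11 window did not share the difference. Its start (chr2:111120242-111123336) had heights of 13.0, 11.8, 8.97 and 10.2 and PHF19 log2 ratios of -0.03 (-0.28 to 0.22) and 0.02 (-0.24 to 0.27). The region at the far end of the gene, 47.7 kb from the start, had 3.51, 3.84, 3.93 and 3.66. These values and those of the flanking regions stayed within the fold in both pairs. At the start, the IFN-prefixed libraries were the lower ones, with log2 ratios of -0.45 (-0.64 to -0.25) with the empty vector and -0.32 (-0.63 to -0.03) with PHF19.

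**Figure D3:**
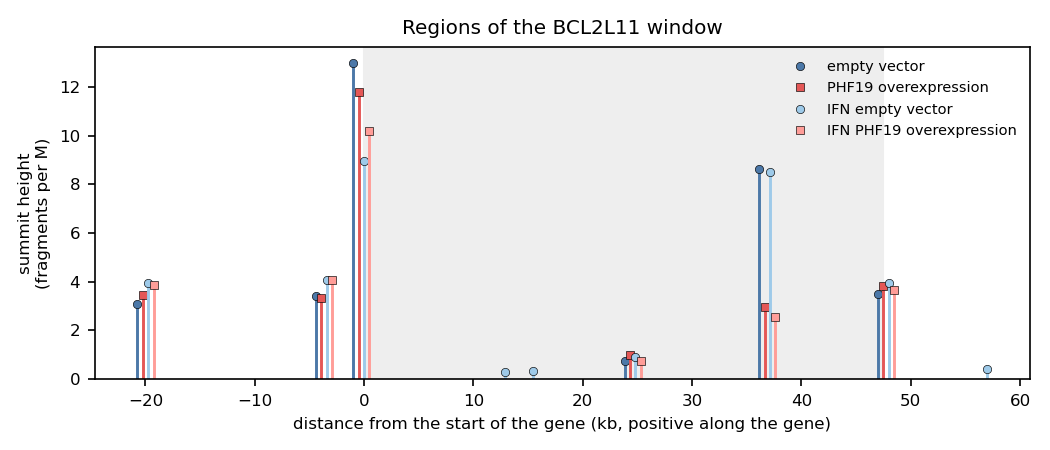
Heights in fragments per M of the regions in the BCL2L11 window against the distance from the gene start in kb; grey marks the gene body, and points of 1 region are set slightly apart by library. At 36.9 kb the empty vector libraries stand at 8.62 and 8.53 and the PHF19 overexpression libraries at 2.96 and 2.56, and at the start and the far end no such gap is seen.

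BBC3, the gene of the BH3-only protein PUMA, was closed at its 1 listed start but open inside. Whether an open region inside holds a further transcript start was not tested. The region 6.3 kb inside (chr19:47226033-47229213), which holds the microRNA genes MIR3190 and MIR3191, had heights of 11.3, 9.82, 7.09 and 8.24, so both IFN-prefixed libraries were below both others. Its IFN-prefix log2 ratio was -0.59 (-0.80 to -0.38) with the empty vector, called lower, and -0.37 (-0.70 to -0.04) with PHF19; the first was -0.45 when centred within 2.5 Mb, -0.43 within height classes and -0.36 with the mean of the region's summits, none of which reaches the fold. The PHF19 ratios were -0.09 (-0.37 to 0.18) and 0.05 (-0.24 to 0.33). The region 1.3 kb inside had 7.56, 5.76, 5.51 and 6.11, the empty vector library being the highest.

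PMAIP1, the gene of NOXA, which binds MCL1 and promotes its degradation, was open at its start (chr18:59899167-59901062) with heights of 9.43, 7.90, 7.30 and 7.51. The PHF19 log2 ratios were -0.14 (-0.45 to 0.16) and -0.13 (-0.42 to 0.16). Its 5 flanking regions were all low, none above 1.26, and none was called in all 4 libraries. BID, which caspase-8 cleaves to carry death receptor signals to mitochondria, had a start (chr22:17773228-17774542) with heights of 4.79, 4.12, 4.40 and 3.97 and log2 ratios of -0.11 (-0.54 to 0.31) and -0.32 (-0.73 to 0.08). Its tallest region, 2.7 kb upstream (chr22:17777096-17777976), had 8.04, 6.42, 7.09 and 4.95, lowest in IFN PHF19 overexpression. There the log2 ratio was -0.21 (-0.55 to 0.12) in the unprefixed pair and -0.69 (-1.04 to -0.34) in the IFN-prefixed pair, called lower; without centring the latter was -0.52, within the fold.

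Counted over all regions of the 10 genes, the PHF19 comparison asks which of them open or close when the vector carries PHF19. In the unprefixed pair 43 regions could be compared. There 1 was higher (2.33%, against 12.8% of all 38367 regions), in BCL2 188.4 kb inside the gene, and 5 were lower (11.6% against 9.16%), in BCL2, BCL2L1 (a pair of regions), BCL2L11 and BBC3. Their median log2 ratio was -0.11 (all regions 0.00), with 29 of 43 below 0. In the IFN-prefixed pair, also 43 regions, 1 was higher (against 11.8% of 43106), at MCL1, and 5 were lower (11.6% against 11.0%), in BCL2 (a pair of regions), BCL2L1, BCL2L11 and BID. The median was -0.20 and 33 of 43 were below 0. The shares lower were near those of all regions in both pairs. The BCL2 region 188.4 kb inside the gene (chr18:63131096-63132094) was higher in the first pair and lower in the second, at low heights of 0.621, 1.21, 1.03 and 0.611, from 17, 22, 68 and 10 fragments.

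Heights of the regions bear on these medians, since ratios varied with height across the series. In the unprefixed pair the median log2 ratio of all regions fell from 0.31 in the lowest of 10 classes of mean height to -0.12 in the tallest, and the 3 tallest classes held 10, 5 and 7 of the 41 regions called in all 4 libraries. When ratios were centred within height classes the median of the 10 genes' regions was -0.04 in the unprefixed pair (from -0.11) and -0.15 in the IFN-prefixed pair (from -0.20). In the IFN-prefixed pair the median of all regions was 0.15 in the lowest class and -0.01 in the tallest, with no steady fall between them. The part of height in the remaining differences was not tested.

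Of the 41 regions called in all 4 libraries, 2 were lower in both PHF19 pairs (4.88%, against 5.37% of all 35731) and none was higher in both (against 4.15%). The 2 were the BCL2L11 region 36.9 kb inside the gene and the BCL2L1 region 18.1 kb inside, and the BCL2 region 157.9 kb inside came nearest among the others, at -0.53 in its weaker pair. Of all regions, 5.24% were at least as low in both pairs as the BCL2L1 region. All 3 lay inside their genes, away from the starts.

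**Figure D4:**
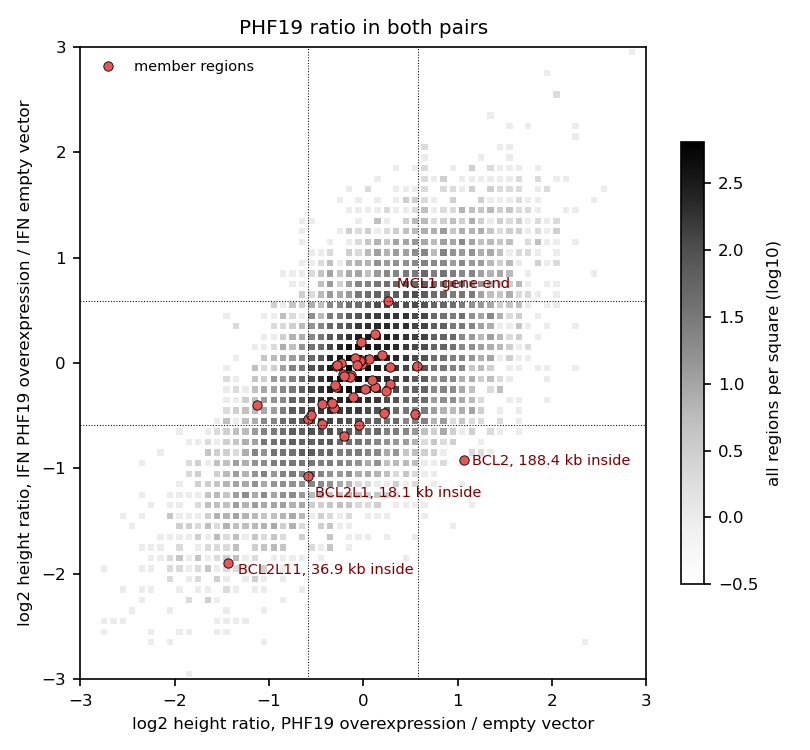
Centred log2 PHF19 ratio in the unprefixed pair (horizontal) and in the IFN-prefixed pair (vertical) for the regions of the 10 genes called in all 4 libraries (red), over all such regions (grey, log10 of the number per square); dotted lines mark 1.5-fold. Most red points lie near 0, and the BCL2L11 region stands apart at -1.43 and -1.90.

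The IFN prefix was compared with each vector, in pairs that share no library with each other but share libraries with the PHF19 pairs. With the empty vector 49 regions could be compared: 4 were higher (8.16%, against 6.22% of 47701), in BCL2 (3 regions) and the PMAIP1 flank, and 2 lower (4.08% against 1.81%), in BBC3 and the PMAIP1 flank. With PHF19 none of 42 was higher (against 6.65% of 38139) and 2 were lower (4.76% against 3.64%), in BCL2 and BCL2L1. None was past the fold in the same direction with both vectors, either higher (0.792% of all 35731) or lower (0.0532%). Medians were -0.04 and -0.01. The largest ratio was 1.19 (0.41 to 2.06), at -14.1 kb from the start of PMAIP1, where heights were 0.585 in empty vector, 1.26 in IFN empty vector and 1.04 in IFN PHF19 overexpression, and PHF19 overexpression had no peak.

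Starts of the 8 genes with an open one moved little. None was past the fold in the unprefixed PHF19 pair, where 3.89% of all start regions were higher and 2.36% lower, and in the IFN-prefixed pair 1 was higher (MCL1, against 3.99%) and none lower (2.36%). In neither IFN-prefix comparison was any past the fold (0.521% higher and 1.18% lower with the empty vector, 0.676% and 1.28% with PHF19). Median log2 ratios, beside those of all starts, were -0.07 (-0.07) and -0.11 (0.00) for PHF19 and -0.24 (-0.20) and -0.17 (-0.06) for the IFN prefix. All 8 were below 0 for the IFN prefix with the empty vector, as were 84.9% of all start regions, so this is the common direction of starts in that comparison. Tall regions as a class were lower in it, with a median of -0.24 in the tallest of 10 height classes against 0.16 in the lowest.

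**Figure D5:**
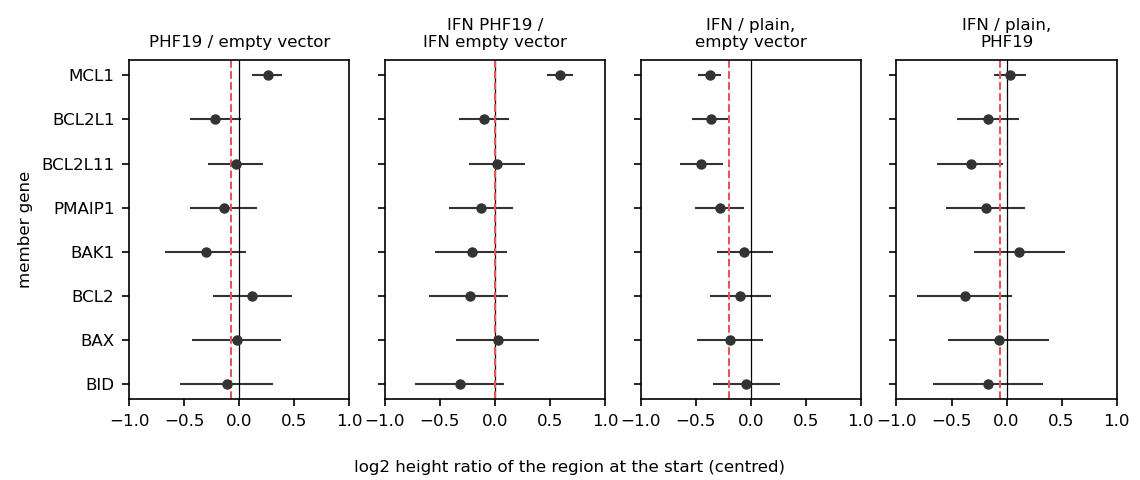
Centred log2 height ratio of the region at each gene's start (for MCL1, its gene end) in the 4 comparisons, with 95% counting intervals; the red dashed line is the median of all start regions in the series. For the IFN prefix with the empty vector all 8 lie below 0, around the all-start median of -0.20, and MCL1 reaches 0.59 in the IFN-prefixed PHF19 pair.

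Peaks present on one side of a pair alone were most frequent in the deepest library, IFN empty vector. With PHF19, 3 of 49 peaks had no partner in the empty vector list (6.12%, Wilson 95% interval 2.1 to 16.5, against 12.0% of all peaks), and 7 of 51 empty vector peaks had none with PHF19 (13.7%, 6.81 to 25.7, against 21.5%). In the IFN-prefixed pair the counts were 0 of 48, which allows a share of up to 6.25% (all peaks 4.48%), and 27 of 71 (38.0%, 27.6 to 49.7, against 38.2%). For the IFN prefix, 21 of 71 IFN empty vector peaks had no partner in the empty vector list (29.6%, 20.2 to 41.0, against 31.6%) and 0 of 51 the other way (up to 5.88%, against 2.04%). With PHF19, 2 of 48 IFN-prefixed peaks (4.17%, 1.15 to 14.0, against 15.7%) and 3 of 49 others (6.12%, 2.1 to 16.5, against 12.6%) were one-sided. For 20 of the 27 and 17 of the 21 the fragments expected in the shallower library were below the tenth percentile of its called peaks. Their absence there cannot be told from peaks missed at this depth.

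The tallest one-sided peaks were better covered. BBC3 and BID each had an upstream region called in both empty vector libraries and in neither PHF19 overexpression library. The BBC3 region, 8.5 kb upstream (chr19:47240978-47241499), had 2.92 and 2.64 fragments per M, and at these heights 53.3 and 43.2 fragments would be expected with PHF19. The BID region, 10.7 kb upstream (chr22:17785158-17785661), had 2.05 and 2.55, with 37.3 and 41.7 expected. Such counts exceed those of 52.1% to 62.6% of the peaks called in the PHF19 overexpression libraries. A region without a peak can still hold fragments, and the authors' fold enrichment at these regions was low, from 2.23 to 3.58. The tallest PHF19 overexpression peak without a partner in the empty vector list was in an MCL1 flank region, at 1.15 per M (21 fragments). That region (chr1:150588762-150589754) lay next to another (chr1:150589773-150590691) that held an empty vector peak of 0.767 per M (21 fragments). The tallest without a partner in IFN PHF19 overexpression was in a BAX flank region, at 3.46 per M (63 fragments). For IFN PHF19 overexpression the tallest one-sided peak was the region at -14.1 kb from the start of PMAIP1.

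Among 39 other genes of the pathway, 35 had an open start or gene end in both libraries of every comparison. In the unprefixed PHF19 pair 2 were higher (3.89% of all starts) and none lower (2.36%), and in the IFN-prefixed pair 2 were higher (3.99%) and none lower (2.36%). For the IFN prefix 1 was higher (0.521%) and 1 lower (1.18%) with the empty vector, and none was past the fold with PHF19 (0.676% and 1.28%). Medians were -0.06, -0.02, -0.25 and -0.12 in the same order, close to those of all starts. TNFRSF1A, the TNF receptor gene, was higher in both PHF19 pairs, at a low level: heights were 0.475, 1.43, 0.440 and 1.65, from 13, 26, 29 and 27 fragments, and log2 ratios 1.70 (0.68 to 2.78) and 1.74 (0.93 to 2.55). FAS, the death receptor gene, had 8.33, 5.43, 6.93 and 5.25, lower in both PHF19 overexpression libraries, with -0.51 (-0.86 to -0.16) and -0.57 (-0.92 to -0.23), within the fold. The 11 apoptosome and caspase genes, the 6 inhibitors of apoptosis and the 7 upstream regulators had none past the fold in any of the 4 comparisons. Of all starts, at most 3.99% were past it in any single direction of a comparison.

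For 6 of the genes, the gene whose start pattern over the 4 libraries was most like theirs is given, found by the distance between log2 heights after removing each region's mean, among the same 35. DDIT3, a stress transcription factor gene, was nearest to both BCL2L1 (distance 0.06, median over candidates 0.26) and PMAIP1 (0.05, median 0.24). MCL1 was nearest to BIRC5 at 0.21 (median 0.53). BAX was nearest to HUWE1 (0.08), BAK1 to XIAP (0.10) and BCL2L11 to FBXW7 (0.09). Over 4 libraries such distances describe the libraries and no more.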

How the data were processed

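ATAC-seq peak lists of 4 AMO1 libraries, 1 per group, were used. Per the file headers, the authors ran MACS2 2.1.2 on the paired fragments of each library, with no control sample, a q of 0.01, duplicates kept and several summits allowed in a peak. Trimmomatic 0.38, bcl2fastq 2.17, DiffBind and the build hg38 are named in the submitters' processing notes, and the aligner is not given in the sources used here. Pileup, as deposited, is the signal, an unscaled fragment coverage at the summit. The deposited fold enrichment is a ratio to the local background, and the authors' columns of −log10 q-value and −log10 p-value served to set stricter or equal lists.

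From these, peaks sharing at least 1 bp were merged into regions, heights were divided by the fragments in M of the header, and log2 ratios were centred on the median of regions called in both libraries (-0.11 and 0.17 for PHF19, -0.09 and 0.11 for the IFN prefix). Intervals are exact for counts, at 95%, and cover counting error only. They take fragments as independent molecules, which does not hold where duplicates were kept, so they can be too narrow even for counting error. Starts and promoter sequences came from RefSeq tables (GRCh38.p14). A gene without a listed start was read within 1000 bp of its gene ends. Regions named in full were each gene's start, its tallest region, those past 1.5-fold in both PHF19 or both IFN-prefix pairs, and the tallest one-sided peaks; further regions were chosen after their values were seen. Some results for single genes are not reported here. The genes, lists and rules were chosen with earlier results of these data known. The steps were tested on simulated data with Python 3.11.15, numpy 2.4.6, pandas 2.3.3 and scipy 1.17.1. The alternatives tried were other windows, peak thresholds, overlaps, centrings and summits.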

Additional observations from a re-analysis of the deposited data

Results flagged for a closer look

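The region 188.4 kb inside BCL2 (chr18:63131096-63132094) moved in opposite directions under the same contrast, and the difference between the pairs was not tested. Its log2 PHF19 ratio was 1.07 (95% counting interval 0.09 to 2.07) in the unprefixed pair and -0.92 (-2.05 to 0.04) in the IFN-prefixed one. Between prefixed and unprefixed libraries it was 0.82 (0.03 to 1.68) with the empty vector and -1.10 (-2.34 to 0.04) with PHF19 overexpression, and these 4 ratios are made from the same 4 heights. Of the 35731 regions called in all libraries, 97 (0.271%) were past 1.5-fold in opposite directions in the PHF19 pairs and 141 (0.395%) in the IFN-prefix pairs. The lowest height rests on 10 fragments.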

How the results depend on the processing

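No paired analysis was possible because each group holds 1 library and the labels give no replicate numbers. Of the summary values, 97 stayed within 1.5 times or within their spread under the alternatives tried and 26 moved; no called value changed sign. The 219 peaks became 119 within gene bodies alone and 336 with 50 kb flanks, and the 71 regions became 36, 111, and 46 with 5 kb flanks, by the construction of the window. Counts of regions past the fold are small and moved by few. In the unprefixed PHF19 pair the 1 higher region became 0 at a −log10 q of at least 5. In the IFN-prefixed PHF19 pair the counts without centring were 2 higher and 3 lower, and the 1 higher region became 0 when centred within 2.5 Mb and with the mean of summits. For the IFN prefix with the empty vector the 2 lower regions became 1 when centred within 2.5 Mb or within 10 height classes, with the mean of summits, within gene bodies, and over regions called in all 4 libraries (chosen after seeing the data), and at a −log10 q of at least 5 the counts were 1 higher and 0 lower. With PHF19 overexpression the median became 0.11 (from -0.01), with 2 higher and 1 lower, without centring, and 1 was lower at the stricter q. With lists of equal length the share of one-sided IFN empty vector peaks was 16.3% against IFN PHF19 overexpression and 8.16% against empty vector, and the latter was 19.7% at the stricter q. The log2 ratio of summed heights over gene bodies alone was -0.19 (from -0.15) with the empty vector and -0.08 (from -0.01) with PHF19 overexpression for the IFN prefix. Where no construction shows it, the cause was not tested. For single named regions 297 values stayed and 23 moved. Regions with low coverage, from 8 to 16 fragments at the lowest peaks of the lists, limit what could be compared.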
